A study of Mus musculus with 10 samples.

Results

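Cd47, Sirpa, Cd24a, Axl, Gas6 and Calr encode signals that set whether a phagocyte engulfs another cell. They are described here as 6 genes of 31053 counted in single-cell RNA sequencing (scRNA-seq) of mouse mammary tumors. The genes were taken as a fixed list, with no measured value in the rule. Earlier results of these data were known when the list was made. Of the 6 genes, 4 had enough reads to be tested between tumor and myeloid cells, and Cd24a and Gas6 are given as counts.

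CD47 on a target cell binds SIRPα, the product of Sirpa, on macrophages, and SIRPα then recruits phosphatases that restrain engulfment. CD24 is an inhibitory ligand of the same kind, read by Siglec receptors on macrophages. Calreticulin, the product of Calr, is an endoplasmic reticulum chaperone that acts as an eat-me signal when it reaches the cell surface, where LRP1 reads it. GAS6 is a bridging ligand that binds exposed phosphatidylserine and the receptor tyrosine kinase AXL, which macrophages use to take up dead cells and which many mesenchymal tumor cells also carry.

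E0771 mammary carcinoma cells, a C57BL/6 mouse line, were implanted into a mammary fat pad (the fourth) of females aged 16 weeks, and the tumors were taken at 21 days. The hosts were EC-AGO1-KO mice, in which VE-Cadherin-Cre (Cdh5-cre) deletes floxed Ago1 in endothelial cells (ECs), or wild-type (WT) littermates, so the tumor cells themselves carried no deletion in either group. There were 5 WT and 5 KO libraries, of which 1 WT and 1 KO formed batch 1 and 4 of each formed batch 2. KO 2+3 and KO 5+6 each pooled 2 tumors, so the KO libraries held 7 tumors.

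Libraries had 8323896 to 10591577 unique molecular identifiers (UMIs, each standing for 1 captured RNA molecule), and 65298 barcodes passed as cells. The batches differed in depth: cells had a median of 3862 to 4049 UMIs in batch 1 and 595 to 1142 in batch 2. Clusters were named by markers as tumor-like (56753 cells), myeloid-like (2177), T-like (1370), fibroblast-like (550), dendritic-like (443), epithelial-like (434), pericyte-like (261), B-like (226) and endothelial-like (181), and 2578 cells that joined tumor and immune genes were left out. WT 4 had 31 myeloid-like cells. Ago1 itself had 0 UMIs in the endothelial-like cells of all 3 WT and 4 KO libraries with at least 10 such cells, which allows up to 40.3 UMIs per 1000000 (CPM) over those libraries, so the deletion could not be checked there. In tumor-like cells the Ago1 level was 5.62 ± 0.50 CPM (WT) and 5.97 ± 1.38 CPM (KO; SD, n = 5 each). Library pairs shared at most 28 cell barcodes.

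Levels below are CPM, the UMIs of a gene summed over all cells of a class in a library and scaled to the total UMIs of that sum with Actb left out of the total, because Actb took 1.99% to 2.27% of UMIs in batch 1 and 8.77% to 17.0% in batch 2. Only classes with at least 10 cells in a library were used. Free RNA, which leaks from broken cells into all droplets, was read from barcodes with at most 50 UMIs and made an estimated 4.34% to 8.08% of the UMIs of tumor-like cells and 13.1% to 23.9% of those of myeloid-like cells.

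Cd47 lies on mouse chromosome 16 (mm10, chr16:49800533-49915010, plus strand), Sirpa at chr2:129592835-129632228 (plus), Cd24a at chr10:43578284-43584265 (plus), Axl at chr7:25757273-25788705 (minus), Gas6 at chr8:13465374-13494490 (minus) and Calr at chr8:84841850-84846934 (minus). All are annotated as protein coding. RefSeq promoters on GRCm38.p6, from 250 bases before to 50 after the start site, matched 4 of the 6 genes (Cd47, Axl, Gas6 and Calr). The Calr promoter is shown because it was the only one of the 4 to hold the endoplasmic reticulum stress element (ERSE, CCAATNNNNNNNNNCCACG, searched on both strands), which is known from genes of chaperones. It was found in the window chr8:84847070-84847099 on the plus strand, opposite to the gene. The base of the element farthest upstream is at position -162 from the start site, and the capitals mark the element.
Calr: atgggCCAATGAGGGTCGACCACGcgttgt
The element was present in 39 of 32851 mouse promoters (0.119%), whereas the GC box (GGGCGG, both strands) was in all 4 matched genes and in 35.7% of promoters. The Cd47 GC box shown next lies in the window chr16:49855594-49855623 on the plus strand, with the box in capitals. It begins at position -48 or -55, depending on the RefSeq start site. The window lies inside the Cd47 span given above, so these start sites differ from the start of that span.
Cd47: ggcggccaggcgGGGCGGagtgcgcgtgcg
These matches describe letters in a window and no binding was measured.

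Cd47 RNA was found in every class, and tumor-like cells held most of it because they were most of the cells. Of the Cd47 UMIs in named classes, 90.1% came from tumor-like cells and 4.59% from myeloid-like cells. On the CPM scale the order was different, and over all libraries tumor-like cells had the lowest mean of the 9 classes on the log scale. The mean level was 1413 ± 495 CPM in dendritic-like cells (SD, n = 9 libraries), 1003 ± 315 in T-like cells (n = 10), 780 ± 227 in myeloid-like cells (n = 10), 784 ± 404 in B-like cells (n = 6) and 458 ± 133 in tumor-like cells (n = 10). Fibroblast-like cells (660 ± 209 CPM, n = 9), pericyte-like cells (603 ± 182, n = 8), epithelial-like cells (478 ± 106, n = 6) and endothelial-like cells (860 ± 574, n = 7) lay between them. These means pool unlike sets of libraries, since the pericyte-like, epithelial-like and endothelial-like values come from batch 2 alone. In batch 2 tumor-like cells had 513 ± 77.0 CPM (n = 8), above the epithelial-like mean, so the lowest rank of tumor-like cells does not hold there. Dendritic-like cells exceeded T-like cells in 9 of 9 libraries, by 0.49 ± 0.25 on the log2(CPM + 10) scale (exact sign-flip permutation test over libraries, two-sided p = 0.0039, the smallest the design allows). After adjustment over the 48 neighbouring pairs of classes of all 6 genes that p was 0.0938, and 0 pairs passed 0.05. Pairs shared by few libraries could not reach a small p, so this count says little about which steps differ. The widest step of Sirpa, from myeloid-like down to dendritic-like cells, was 3.09 ± 1.60 in 9 of 9 libraries at the same smallest p of 0.0039 (exact sign-flip permutation test, adjusted p = 0.0938).

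Cd47 also differed between the batches in every large class. In tumor-like cells it was 240 ± 3.72 CPM in batch 1 (n = 2) and 513 ± 77.0 in batch 2 (n = 8), with no overlap. In myeloid-like cells the values were 456 ± 43.0 and 860 ± 169 CPM, and in T-like cells 553 ± 31.8 and 1115 ± 236 CPM. Free RNA showed the same order, at 69.4 to 71.2 CPM in batch 1 and 225 to 367 CPM in batch 2. Sirpa in myeloid-like cells did not share it (378 ± 32.9 against 293 ± 95.8 CPM), nor did Calr (223 ± 1.02 against 218 ± 30.5) or Axl (63.5 ± 0.93 against 60.4 ± 8.53) in tumor-like cells. Depth per cell and the Actb share moved with the batch too, and their part in the Cd47 levels was not tested. The reported comparisons of KO with WT within a class therefore carry batch as a term.

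Sirpa, the receptor for CD47, was a myeloid gene in these tumors. Of its 995 UMIs in named classes 86.6% were in myeloid-like cells, where the level was 310 ± 92.4 CPM (SD, n = 10). The tumor-like level of 1.80 ± 0.78 CPM was below that of free RNA in these libraries (17.2 to 46.4 CPM) and is read as background. Dendritic-like cells had 48.0 ± 48.3 CPM from 12 UMIs (n = 9), and endothelial-like cells had 0 UMIs. The related genes Sirpb1a (263 UMIs), Sirpb1b (315) and Sirpb1c (209) were counted in the same myeloid-like cells, and reads that match more than 1 of these near copies could be lost or assigned to either, so the Sirpa level carries that uncertainty.

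Cd24a, the mouse gene for CD24, was almost absent from the tumor-like cells. It had 10 UMIs in 56753 tumor-like cells and was at 0 in 4 of the 10 libraries, and the other libraries reached at most 0.611 CPM. Myeloid-like cells had 7 UMIs. T-like, fibroblast-like, pericyte-like and endothelial-like cells had 0 UMIs, which allows pooled levels of up to 4.77, 8.02, 21.7 and 40.3 CPM. The gene was found instead in epithelial-like cells (192 ± 97.1 CPM, n = 6, 36 UMIs), B-like cells (186 ± 93.5, n = 6, 19 UMIs) and dendritic-like cells (91.8 ± 78.7, n = 9, 19 UMIs). The 3 genes most like it across 75 class-by-library sums were Bcl11a (Pearson r = 0.64), Epcam (0.60) and Sorl1 (0.59).

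Axl was carried by tumor-like, myeloid-like, fibroblast-like and pericyte-like cells. Its level was 61.0 ± 7.64 CPM in tumor-like cells, 80.3 ± 17.2 CPM in myeloid-like cells (n = 10 each) and 103 ± 64.0 CPM in fibroblast-like cells (n = 9). Pericyte-like cells had 81.7 ± 87.5 CPM (n = 8) from 10 UMIs, with 3 libraries at 0. Because of their number, tumor-like cells gave 92.8% of Axl UMIs, and the myeloid-like level in batch 2 rests on 33 UMIs. Of the other receptors of the AXL family, Mertk had means of 138 ± 36.5 (WT) and 114 ± 46.0 CPM (KO) in myeloid-like cells and of 13.8 ± 3.79 and 11.1 ± 3.72 CPM in tumor-like cells (n = 5 each), and Tyro3 had 0 UMIs in myeloid-like cells and 67 in tumor-like cells.

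For Gas6, the bridging ligand of AXL, myeloid-like cells gave 155 of the 215 UMIs (72.1%), at a mean of 38.3 ± 36.1 CPM (n = 10). In myeloid-like cells the values were 84.3 CPM in the WT and 64.6 CPM in the KO library of batch 1 (76 and 66 UMIs). In batch 2 they ran from 0 to 92.8 CPM on 13 UMIs in all, with WT 3, WT 4 and KO 5+6 at 0. Batch 1 therefore gave 142 of the 155 UMIs. Tumor-like cells had 28 UMIs (0 to 1.59 CPM, 3 libraries at 0), below the free RNA level of 6.23 to 14.3 CPM. Epithelial-like cells had the highest mean, 55.8 ± 47.5 CPM (n = 6, 14 UMIs), and fibroblast-like cells had 30.4 ± 42.6 CPM (n = 9, 11 UMIs in the libraries with at least 10 such cells), and dendritic-like, pericyte-like and endothelial-like cells had 0 UMIs.

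Calr was broadly expressed. Its mean level was 294 ± 76.4 CPM in myeloid-like cells and 219 ± 27.0 CPM in tumor-like cells (SD, n = 10 each). It lay between 111 ± 111 CPM in B-like cells (n = 6) and 268 ± 181 CPM in fibroblast-like cells (n = 9) in the other classes. Tumor-like cells gave 90.4% of its UMIs. The reads are those of the transcript and do not show how much calreticulin was at the cell surface.

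**Figure D1:**
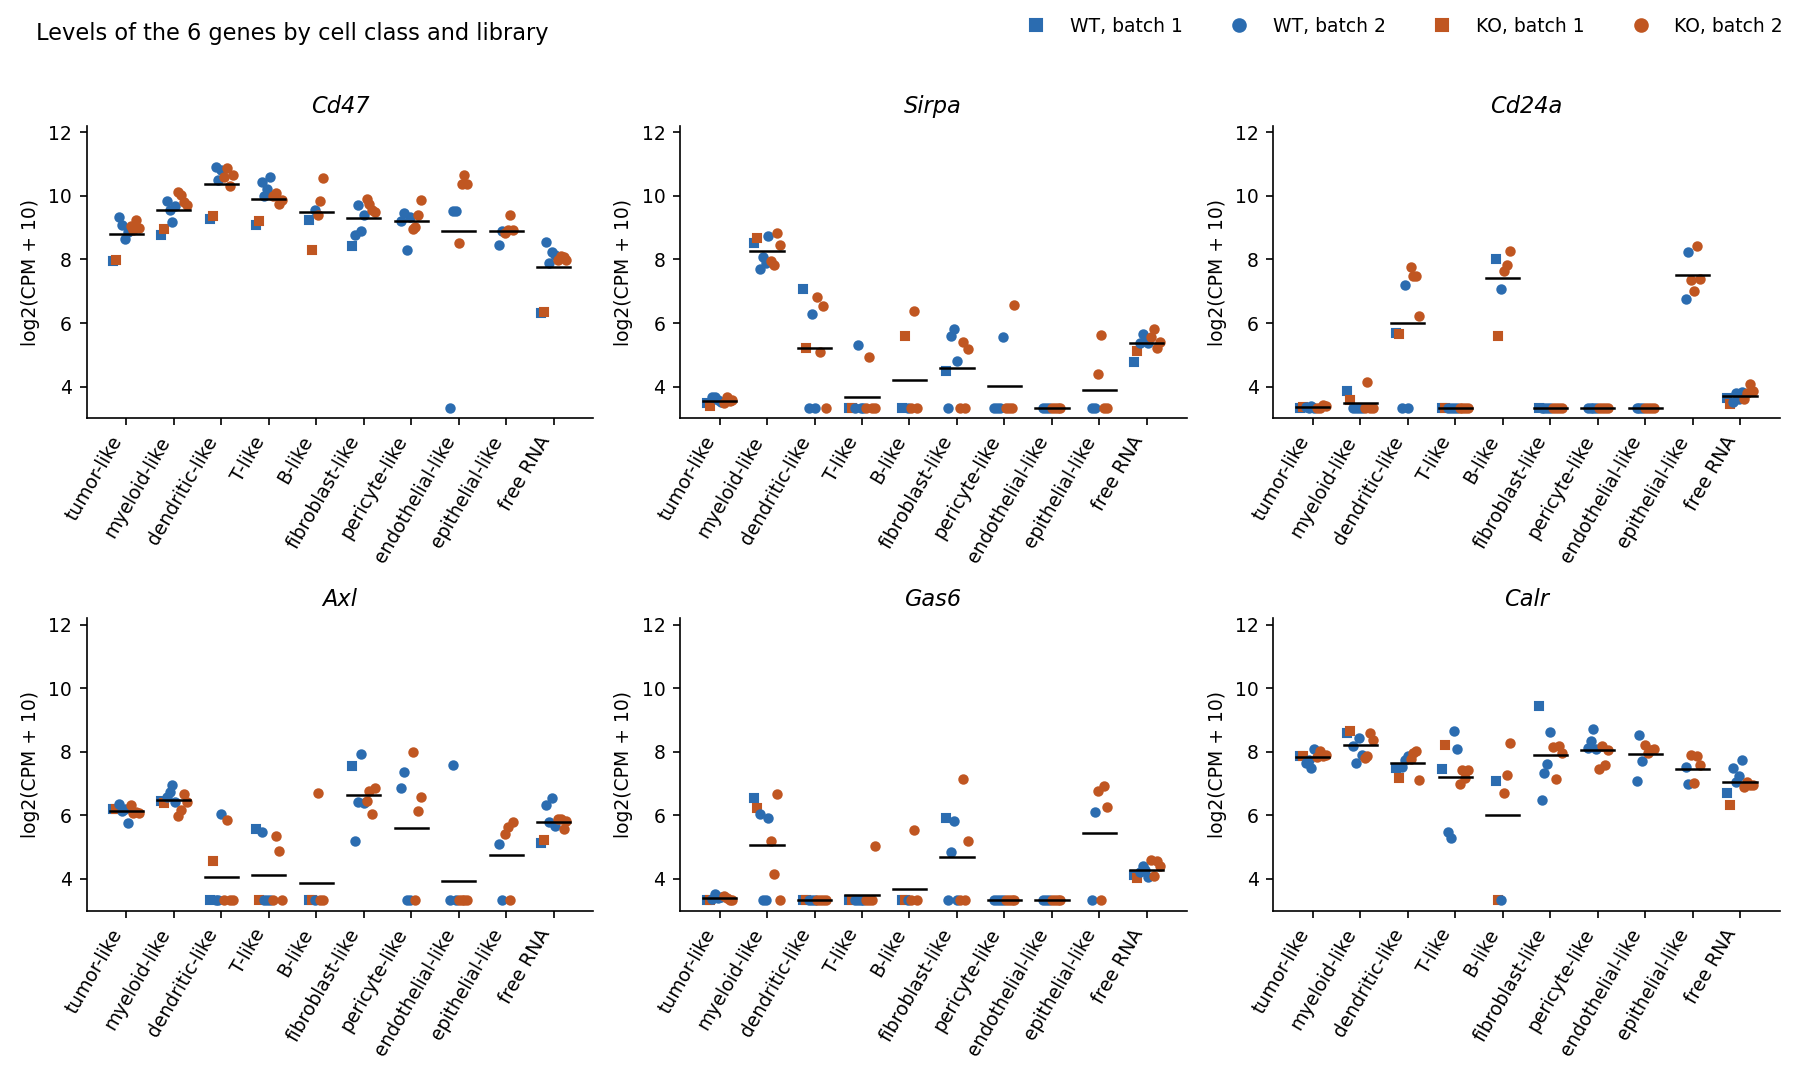
Level of each of the 6 genes, as log2(CPM + 10), in each cell class and in free RNA, with a point for each library of at least 10 cells (blue WT, orange KO, squares batch 1, circles batch 2) and a line at the mean. Sirpa is highest in myeloid-like cells, Cd24a is at or near 0 in tumor-like cells, and the batch 1 libraries have the lowest tumor-like Cd47, at 237 and 243 CPM.

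Tumor-like and myeloid-like cells were then set against each other within each library, which places the ligands of the target cell beside the receptors of the phagocyte. Of 9828 genes tested, 2010 were higher (20.5%) and 4128 lower (42%) in myeloid-like cells, 62.5% called in all, and the median log2 fold change over all genes was -0.46. Sirpa was higher in myeloid-like cells in 10 of 10 libraries, by a fitted 7.28 log2 units (SE 0.306, edgeR quasi-likelihood fit). It passed the low-count filter through its myeloid level while its tumor-like level is read as background above, so the fold is a description, and with free RNA subtracted it was 10.2.

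Cd47 was higher on the CPM scale in the myeloid-like cells than in the tumor-like cells of the same library in 10 of 10 libraries. In WT the tumor-like level was 237 CPM in batch 1 and 633, 538, 391 and 453 CPM in WT 1, WT 3, WT 4 and WT 5. The myeloid-like level in the same order was 426, 905, 740, 564 and 809 CPM, of which the fourth rests on 5 UMIs. In KO the tumor-like level was 243 CPM in batch 1 and 516, 480, 594 and 496 CPM in KO 1, KO 2+3, KO 4 and KO 5+6, against 487, 1111, 1030, 891 and 832 CPM in myeloid-like cells. The difference was 0.76 ± 0.24 on the log2(CPM + 10) scale (exact sign-flip permutation test, p = 0.00195, the smallest possible). With composition scaling over all genes (TMM) it was 0.57 (SE 0.18, edgeR adjusted p = 0.0055). This call did not hold under every setting: with low-count genes kept in, or with a more permissive filter added after the data were seen, the value was 0.19 (adjusted p = 0.52) or 0.13 (adjusted p = 0.552). Without the library WT 1 the adjusted p was 0.0538, and without KO 1 it was 0.0776.

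Axl and Calr did not pass the edgeR test between the classes, while the exact permutation test gave each an unadjusted p under 0.05. Axl had a log2 fold change of 0.28 (SE 0.227, edgeR adjusted p = 0.292) and was higher in myeloid-like cells in 9 of 10 libraries (exact sign-flip permutation test on log2(CPM + 10), p = 0.0195). Calr had 0.23 (SE 0.2, adjusted p = 0.323) and was higher in 6 of 10 (exact permutation, p = 0.0332). Both values turned negative without the filter on low counts, at -0.08 for Axl and -0.15 for Calr, so no direction is given. Gas6 and Cd24a were not tested by this fit, with 155 and 7 UMIs in myeloid-like cells against 28 and 10 in tumor-like cells. Gas6 was higher in myeloid-like cells in 7 of 10 libraries, by a mean of 1.68 ± 1.44 over all 10 on the log2(CPM + 10) scale. Those 7 are the libraries with any Gas6 UMI in myeloid-like cells. Since tumor-like Gas6 was below free RNA, the direction was set by whether such a UMI was seen, and the value is a description.

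Markers of other cells stood beside these levels. The 8 tumor markers were all detected in myeloid-like cells, with a summed level of 1839 to 4403 CPM in WT and 1819 to 3838 CPM in KO, against 10452 to 21480 and 10577 to 20954 CPM in tumor-like cells. Fmnl2, one of these markers, was also a leading gene of 588 myeloid-like cells led by St18 and Mitf. The list holds Vim, Myc and Trp53 too, so the sum does not measure tumor RNA alone. The 12 myeloid markers summed to 20.7 to 64.2 CPM in WT and 22.0 to 51.1 CPM in KO tumor-like cells. Of the 8 epithelial markers Krt18, Krt19, Krt5, Krt14, Krt7 and Epcam were at 0 in myeloid-like cells. The share of tumor RNA in the myeloid-like levels of Cd47, Axl and Calr was not tested, beyond a subtraction of the estimated free RNA that left Cd47 0.62 higher in myeloid-like cells.

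**Figure D2:**
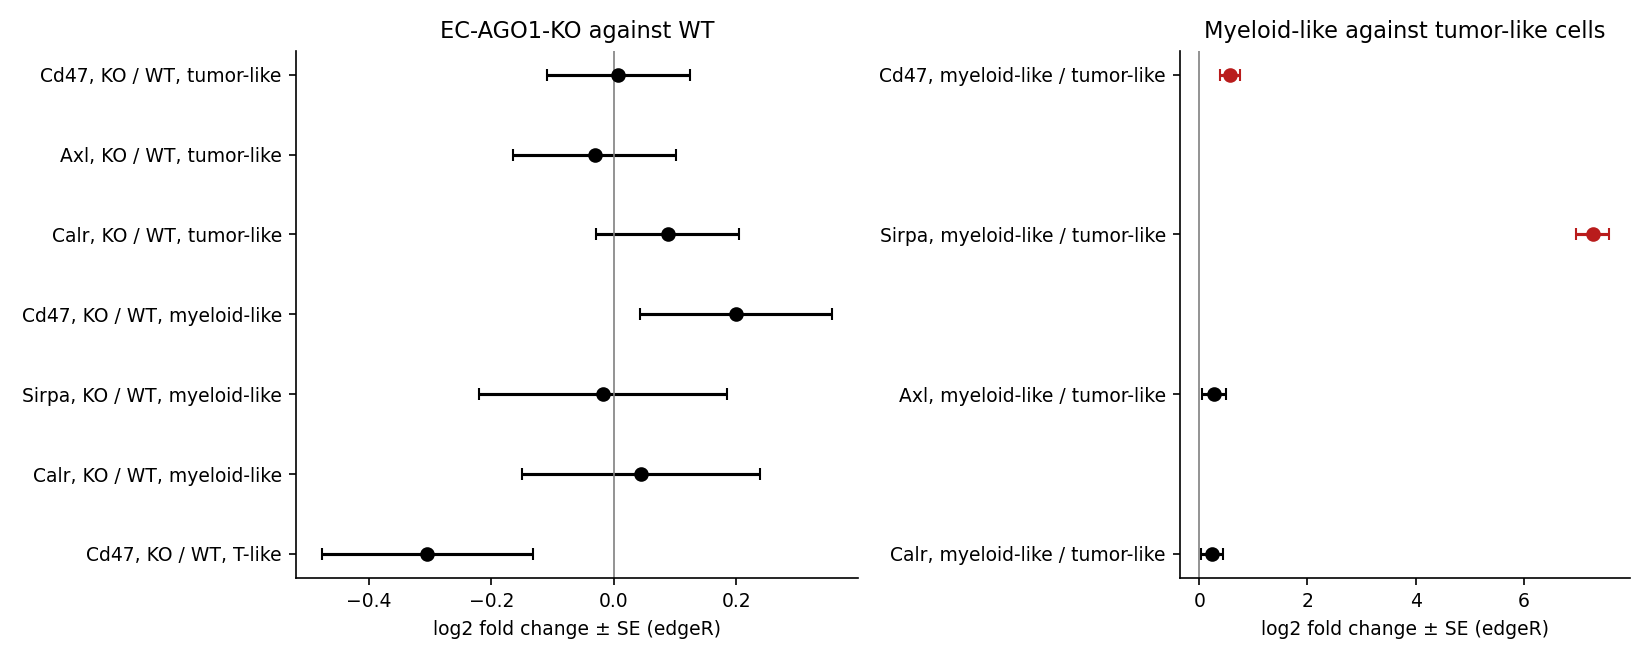
Log2 fold changes from edgeR with bars of 1 SE for the tested genes, KO against WT in the left panel and myeloid-like against tumor-like cells in the right, with red for an adjusted p under 0.05. Sirpa at 7.28 and Cd47 at 0.57 are the red points, and the KO against WT values lie between -0.30 and 0.20.

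The study asked how the loss of AGO1 in endothelial cells changes the tumor and its immune cells, and none of the tested genes among the 6 passed between KO and WT by edgeR. In tumor-like cells 0 of 11565 genes were called by edgeR (0%), and 628 genes (5.43%) had an unadjusted p under 0.05, whereas DESeq2 called 1. Calr in tumor-like cells was 223, 189, 206, 168 and 260 CPM in the WT libraries (batch 1, WT 1, WT 3, WT 4 and WT 5) and 224, 217, 252, 225 and 229 CPM in KO (batch 1, KO 1, KO 2+3, KO 4 and KO 5+6). The KO values lay within the range of the WT values, with a log2 fold change of 0.09 (SE 0.117, edgeR adjusted p = 0.942). Cd47 in tumor-like cells averaged 451 ± 150 CPM in WT and 466 ± 132 CPM in KO, a log2 fold change of 0.01 (SE 0.116, adjusted p = 0.993). Axl was 64.2, 72.0, 59.6, 63.9 and 44.7 CPM in WT and 62.9, 70.0, 57.4, 58.2 and 57.4 CPM in KO, and its fold change was -0.03 (SE 0.133, adjusted p = 0.979). The groups overlapped for all 3 genes, and the direction of Cd47 and Axl turned with the settings. Sirpa (59 UMIs in WT, 39 in KO), Gas6 (19 and 9) and Cd24a (4 and 6) did not pass the edgeR filter in tumor-like cells, and the exact permutation within batches gave p = 0.271, 0.343 and 0.429.

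In myeloid-like cells 0 of 1168 genes were called by edgeR (0%), with 46 (3.94%) at an unadjusted p under 0.05, and DESeq2 also called 0. Cd47 was higher on average in KO (870 ± 241 CPM) than in WT (689 ± 193 CPM, n = 5 each). Within batch 2 the lowest KO library (832 CPM) was above WT 3, WT 4 and WT 5 and below WT 1 (905 CPM), and within batch 1 KO had 487 and WT 426 CPM. The WT 4 value, 564 CPM, rests on 5 UMIs and has the same weight as the other batch 2 WT libraries in the permutation test. The exact permutation test within batches gave p = 0.0429 for a difference of 0.33 on the log2(CPM + 10) scale, before any adjustment for the 18 such tests, and its smallest possible p was 0.0143. The edgeR value was smaller, at 0.20 (SE 0.157, adjusted p = 0.972), so this difference did not pass across all genes.

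Sirpa in myeloid-like cells was 355, 198, 263, 226 and 417 CPM in WT and 402, 238, 217, 446 and 340 CPM in KO, in the library order used above. The WT 4 value rests on 2 UMIs. The groups overlapped over almost their whole range, the fold change was -0.02 (SE 0.202, edgeR adjusted p = 1.00), and its sign changed between settings. Calr in the same cells was 283 ± 76.6 CPM in WT and 305 ± 83.5 CPM in KO, with a fold change of 0.04 (SE 0.194, adjusted p = 1.00). Axl, which did not pass the filter in these cells, was 89.1 ± 15.5 CPM in WT from 83 UMIs and 71.6 ± 15.1 CPM in KO from 95 UMIs (exact permutation within batches, p = 0.1). The batch 1 library gave 69 of these WT UMIs and 76 of the KO UMIs. The highest WT value of Axl, 113 CPM in WT 4, rests on 1 UMI. Gas6 had 82 UMIs in WT and 73 in KO, with means of 38.3 CPM in each group.

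In T-like cells 0 of 840 genes were called by edgeR (0%), with 26 (3.1%) at an unadjusted p under 0.05, and DESeq2 called 0. Cd47 was 531, 1368, 1000, 1174 and 1540 CPM in WT and 576, 1002, 1081, 842 and 916 CPM in KO. WT 1, WT 4 and WT 5 were above all KO libraries, WT 3 lay among them, and in batch 1 KO was above WT. The fold change was -0.30 (SE 0.172, edgeR adjusted p = 0.942), and the exact permutation within batches gave p = 0.1. Without the low-count filter the fold change was -0.028 (adjusted p = 0.967), and with free RNA subtracted it was -0.32. The estimated free RNA share of T-like cells was 32.0% to 36.7% in the KO and 15.4% to 31.5% in the WT libraries of batch 2, and 20.6% and 16.1% in batch 1. Calr, with 26 UMIs in WT and 85 in KO T-like cells, did not pass the edgeR filter, and the exact permutation within batches gave p = 0.5.

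The KO effect was also compared between myeloid-like and tumor-like cells in 1 fit. This fit had library as a block and no term for a class difference that varies with batch. By edgeR 0 of 9828 genes were called (0%), and 176 (1.79%) had an unadjusted p under 0.05. The difference of effects was 0.33 for Cd47 (SE 0.372), 0.46 for Sirpa (SE 0.565), -0.21 for Axl (SE 0.489) and 0.06 for Calr (SE 0.415), each with an adjusted p of 1. These standard errors are 2 to 4 times those within tumor-like or myeloid-like cells, so a moderate difference could be missed by this fit. Its power was not tested.

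**Figure D3:**
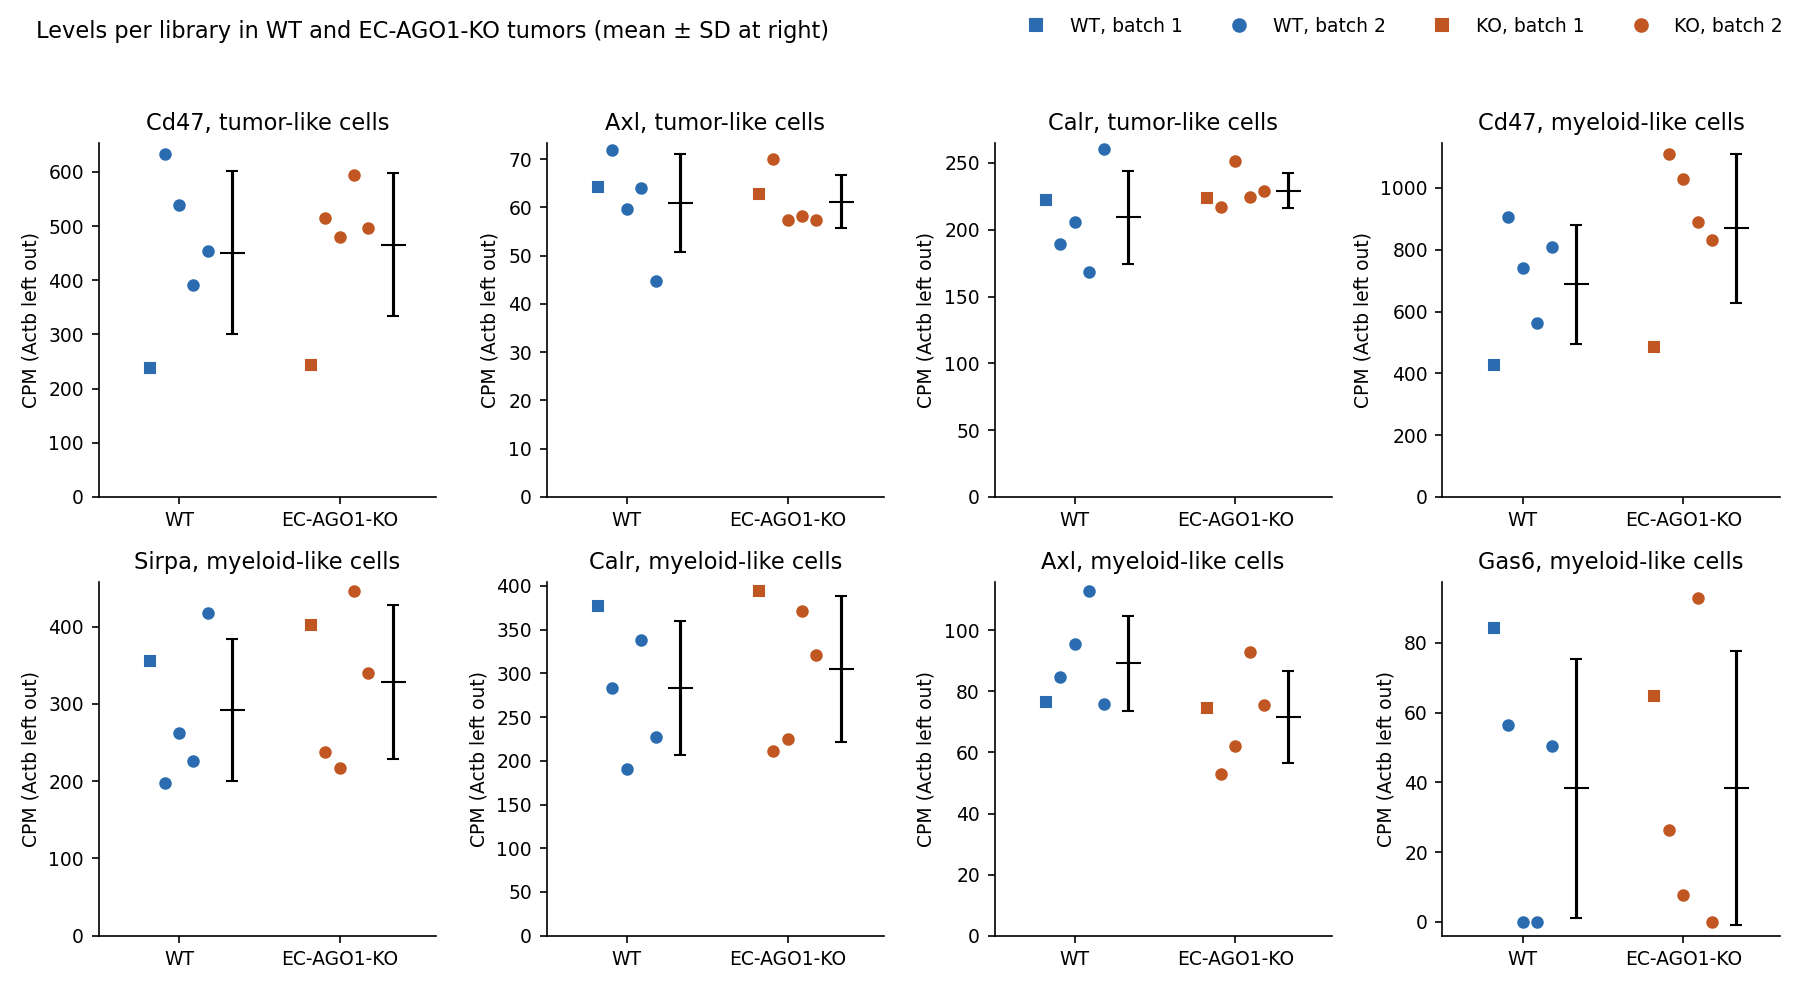
Levels in CPM, with Actb left out of the total, of Cd47, Axl and Calr in tumor-like cells and of Cd47, Sirpa, Calr, Axl and Gas6 in myeloid-like cells, with a point for each WT (blue) or KO (orange) library, squares for batch 1, and the mean ± SD at the right of each group. Tumor-like Cd47 runs from 237 to 633 CPM in WT and from 243 to 594 CPM in KO, and the groups overlap in each panel.

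Within the tumor-like cells the clusters differed in level, with the 6 genes themselves held out of the genes used for clustering. In the 8 libraries of batch 2, mean Cd47 ran from 425 ± 69.1 CPM in a cluster led by Lncpint and Magi3 to 666 ± 131 CPM in a cluster led by F2r and Usp22. It was 641 ± 93.0 CPM in a cluster led by the interferon-induced genes Usp18, Herc6 and Rsad2, and 566 ± 114 CPM in a cluster led by Ccl2, Nfkbia and Tnip1. Calr was lowest in the Lncpint cluster, at 147 ± 23.9 CPM, and 165 ± 53.0 CPM in the interferon-induced cluster, against 294 ± 80.3 CPM in a cluster led by Gpc1 and Gatm. Axl ran from 44.4 ± 12.6 to 86.6 ± 13.4 CPM. These are descriptions with no test, since the clusters are cells of the same libraries.

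The myeloid-like cells were also divided. Of the 2177 cells, 1140 were in groups that met the markers of no subtype, and these made 1135 of the 1471 myeloid-like cells of batch 2. Gas6 in batch 1 was 182 ± 53.5 CPM (n = 2 libraries, 104 UMIs) in macrophage-like cells led by Ccl8, Pf4 and Folr2. It was 37.5 ± 16.3 CPM (38 UMIs) in cells led by the hemoglobin genes Hbb-bs, Hba-a1, Hba-a2 and Hbb-bt, followed by Acp5 and Pltp. The rule named these cells macrophage-like, by 4 myeloid markers, although hemoglobin genes led them. Gas6 was 0 in monocyte-like cells led by Ly6c2 and Plac8. Sirpa varied less across the same 3 groups of cells, at 377 ± 6.88, 406 ± 47.4 and 290 ± 53.8 CPM. In batch 2 Axl was 119 ± 51.7 CPM (n = 7, 20 UMIs) in cells led by St18 and Mitf and 5.33 ± 14.1 CPM (1 UMI) in cells led by Col1a1 and Kif15, which met the markers of no subtype. Against the other cells divided with them, these 275 Col1a1 and Kif15 cells had 4 tumor markers and 0 myeloid markers raised 2-fold. Another 250 cells of no subtype, led by Gm10718 and Gm10800, had 3 and 0. The part of such cells in the myeloid-like levels was not tested. A group of 27 cells led by Siglech and Ccr9 held 29 Cd47 UMIs, which is 2628 CPM over all libraries.

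Other genes of the phagocytosis pathway were read from 7 lists of 127 genes, of which Clec7a was not among the genes counted. Among the inhibitory receptors and phosphatases 8 of 15 were tested, 7 were higher in myeloid-like cells and 1 lower, against 20.5% higher and 42% lower of all genes tested, with a median log2 fold change of 6.99 against -0.46 over all genes. Beside Sirpa these were led by Lilrb4a (7.64, SE 0.392), Cd300a (7.55, SE 0.341) and Clec4a2 (7.51, SE 0.387). Of the phosphatase genes in this list, Ptpn6 was 5.28 higher and Ptpn11 was the one that fell, by 1.26 on the log2 scale. A gene that is at background in tumor-like cells passes the low-count filter only through its myeloid level, so these counts describe the lists and are not read as support.

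Engulfment receptors had 15 of 29 genes tested, of which 11 were higher and 2 lower (20.5% and 42% of all genes), with a median of 3.17. Fcgr3, an IgG receptor (7.62, SE 0.424), Msr1, a scavenger receptor (7.35, SE 0.334), Cd36 (6.92, SE 0.267) and Havcr2 (6.79, SE 0.26) led them. Mertk was 3.17 higher and Lrp1, the calreticulin receptor, 1.23 higher in myeloid-like cells. Of the engulfment signalling genes 20 of 24 were tested, 17 were higher and 1 lower, with a median of 1.92, and the largest were Tyrobp (7.66), Fcer1g (7.33), Syk (6.83) and Dock2 (6.43). For phagosome degradation 16 of 20 were tested, 8 were higher and 0 lower, with a median of 0.85, with Ucp2 (7.57), the oxidase subunit Cybb (7.35) and Pparg (6.32) among the higher genes.

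The ligand lists were mixed. Of the inhibitory ligands 8 of 11 were tested, 6 were higher in myeloid-like cells and 1 lower (20.5% and 42% of all genes), with a median of 1.85. The higher ones included the leukocyte genes Cd52 (7.18, SE 0.414) and Ptprc (7.12, SE 0.255) and the checkpoint ligand Cd274 (5.14, SE 0.267). Qpctl, whose enzyme modifies the SIRPα-binding end of CD47, fell by 2.64 on the log2 scale (SE 0.388), with 2745 UMIs in tumor-like and 14 in myeloid-like cells. Among eat-me ligands and bridging molecules 12 of 14 were tested, 4 were higher and 3 lower, with a median of 0.34. Slamf7 (7.57, SE 0.304) and Thbs1 (6.95, SE 0.264) were higher in 10 of 10 libraries. The complement gene C3 had a fitted 2.85 (SE 0.362) but was higher in only 5 of 10 libraries, on 117 UMIs in myeloid-like cells. The phosphatidylserine bridge Mfge8 was lower at -5.11 (SE 0.447), with 3350 UMIs in tumor-like and 6 in myeloid-like cells. For phosphatidylserine exposure and find-me signals 10 of 14 were tested, 3 were higher and 3 lower, shares near those of all genes, with a median of -0.22. Cx3cr1, the receptor of a find-me chemokine, had a fitted 3.84 (SE 0.347) and was higher in myeloid-like cells in 7 of 10 libraries.

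**Figure D4:**
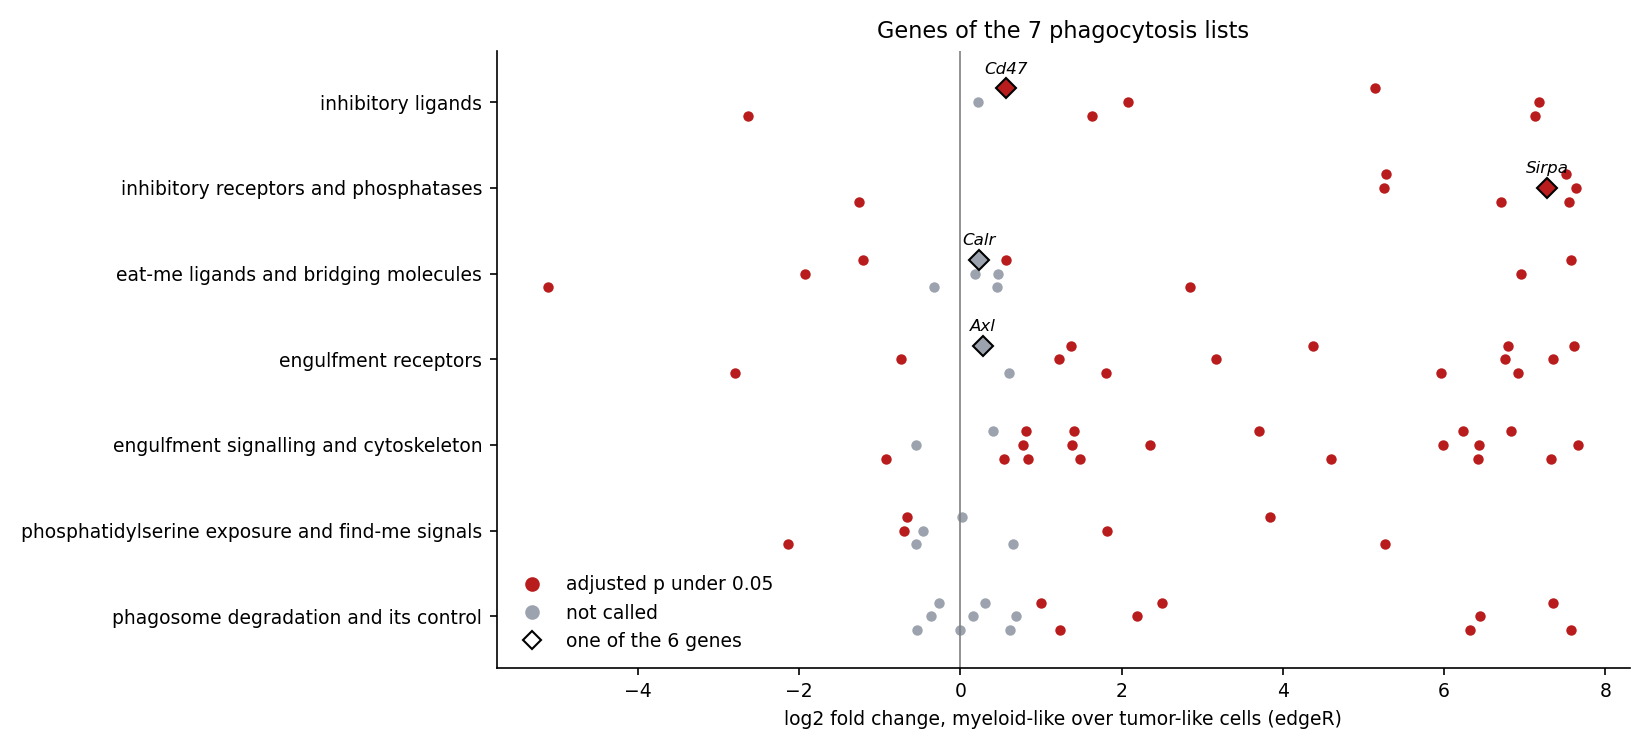
Log2 fold change from edgeR of each tested gene of the 7 phagocytosis lists, myeloid-like over tumor-like cells, with red for an adjusted p under 0.05, grey for genes not called and diamonds for Cd47, Sirpa, Calr and Axl. The inhibitory receptors lie far to the right with a median of 6.99, and the eat-me ligands spread from -5.11 to 7.57. Vertical offsets only separate the points.

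Between KO and WT none of the tested pathway genes was called in tumor-like, myeloid-like or T-like cells, and in T-like cells 2 lists had no tested gene. In tumor-like cells the 7 list medians ran from -0.10 to 0.16, and the smallest p of any list was that of Nr1h2 (log2 fold change 0.56, SE 0.212, edgeR adjusted p = 0.88). Plscr1 had -0.24 (SE 0.108, adjusted p = 0.88). The tested genes with the smallest p of the other lists were Cd274 (0.57), Stab1 (0.68), Fcgr2b (-0.38), Wipf1 (-0.21) and Anxa5 (0.13). In myeloid-like cells the medians ran from -0.25 to 0.14, and Syk, a kinase below activating Fc receptors, had the smallest p (0.57, SE 0.207, adjusted p = 0.793), with 148 UMIs in WT and 286 in KO. Lgals3 had -0.43 (SE 0.196), Fcgr2b -0.42 (SE 0.204), Havcr2 0.41 (SE 0.213), Abca1 -0.24 and Ano6 -0.09, all with adjusted p of 0.972 or 1.00. In T-like cells Dock2 (-0.15), Hmgb1 (0.13), Itgav (0.11) and Rab7 (0.01) were the lists' smallest p values beside Cd47.

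Across the 75 class-by-library sums, which share libraries and depth, the genes most like Sirpa were Clec4a2 (Pearson r = 0.80), Fcgr2b (0.75) and C1qb (0.75). Those most like Cd47 were Capzb (0.67), Tram1 (0.65) and Baz2b (0.64). For Axl they were Mmp14 (0.66), Asph (0.65) and Itgb5 (0.62), for Gas6 Pdpn (0.55), Pdgfc (0.54) and Cebpd (0.54), and for Calr Ybx1 (0.55), Ifitm3 (0.47) and Ptms (0.47).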

How the data were processed

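scRNA-seq was performed on tumors from 5 WT and 5 KO libraries. Per the labels, the authors aligned reads to mm10 with Cell Ranger 7.1.0 and deposited counts, as raw UMI counts per gene and barcode, empty droplets included. The authors' cell annotation was not used here. Cells were barcodes in which 200 to 7000 genes were seen and no more than 10% of UMIs were mitochondrial. No doublet caller was run, and clusters that joined markers of tumor and immune cells were left out as mixtures. Cells were clustered (leidenalg 0.10.2, resolution 1, 2000 variable genes with the pathway genes held out) and named "-like" by at least 3 detected markers at 2-fold, with naming thresholds set after the clusters were seen.

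UMI counts were summed per library and class and tested with edgeR 4.0.16 (R 4.3.3; quasi-likelihood F test, TMM, filterByExpr told the groups, Benjamini-Hochberg adjustment over all genes tested, calls at an adjusted p under 0.05), with batch as a term for KO against WT and library as a block between classes. Single values were tested by exact permutation on log2(CPM + 10). Alternatives were DESeq2 1.42.0, no TMM, other filters and cell cut-offs, free RNA subtracted, batch 2 alone and leaving out each library. The p-values measure the spread between these libraries. Intervals and the limits that a count of 0 allows (3 counts) cover counting error only.

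The edgeR fits were tested on simulated data: for genes changed by 1 log2 unit, 88% were recovered in tumor-like (7 false calls among 11565 genes), 92% in myeloid-like (9 among 1168) and 89% in T-like cells (8 among 840), and 51% between classes (36 false calls among 9828 genes). Each run changed 100 genes by 1 log2 unit and 100 by 2, and false calls are those of the whole run. Between classes 93% of the latter were recovered, so false calls were a larger share of calls than the 0.05 aimed at. The Cd47 call between classes comes from this fit. The simulation held no other class difference, whereas 62.5% of genes were called in the data.

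The 6 genes, the marker and pathway lists and the tests were chosen with earlier results of these data known. Named genes were the 6 genes, up to 4 called genes of largest fold per pathway list between classes, the smallest p per list between KO and WT, the 3 genes most correlated with each of the 6, and leading genes of clusters. Some genes that this rule selects are not reported here. Ptpn6, Ptpn11, Mertk, Tyro3, Lrp1 and the Sirpb1 genes were named after their values were seen. Promoter sequences are from RefSeq and gene positions from the mm10 annotation.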

Additional observations from a re-analysis of the deposited data

Results flagged for a closer look

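Calr in T-like cells of the KO library of batch 1 stood apart from the other KO libraries. Its level was 283.88 CPM, while the nearest of the other 4 KO libraries had 160.4 CPM, a gap of 0.744 of the whole range of the 5 libraries against Dixon's 95% critical value of 0.71. In all 22 groups of gene, class and genotype with at least 20 UMIs were looked at, and chance flags about 1 in 20 such groups. In WT T-like cells Calr ran from 29.4 to 391 CPM.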

How the results depend on the processing

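Of 110 recomputed counts of called genes, 99 stayed within 1.5 times the reported count. For KO against WT in tumor-like cells DESeq2 called 1 gene and the fit without a low-count filter 43. In myeloid-like cells 1 gene was called without TMM, 13 without the filter, 3 in batch 2 alone, 2 with up to 20% mitochondrial UMIs, and 0 to 4 with each library left out in turn (4 without WT batch 1, 4 without KO batch 1, 2 without WT 4). The class comparison gave 9309 calls without the filter, and the difference of effects 0 to 2 with a library left out (2 without KO batch 1).

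Among the 6 genes, the near-zero KO values changed sign. Axl in tumor-like cells was 0.0092 without TMM, 0.020 without the pooled KO libraries, 0.016 by exact permutation and -0.13 to 0.033 with a library left out. Cd47 in tumor-like cells was -0.015 without the filter, -0.000739 with Actb kept and -0.066 to 0.096 with a library left out. Sirpa in myeloid-like cells was 0.0074 by DESeq2, 0.057 without TMM, 0.059 without the filter, 0.017 without the batch term, 0.12 without the pooled libraries, 0.17 by exact permutation and -0.098 to 0.14 with a library left out. Calr there was -0.028 without the batch term, -0.028 at clustering resolution 2 and -0.019 to 0.21 with a library left out, and Cd47 was 0.33 by exact permutation. The difference of effects ran from -0.34 to 0.074 for Axl and from -0.16 to 0.61 for Calr with a library left out.

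Between the classes, the choice of low-count filter changed calls and directions. Without a filter the values were 0.19 for Cd47, -0.080 for Axl and -0.15 for Calr, and Cd24a had 3.68 and Gas6 6.09. With the filter set from the design matrix, run after the data were seen, they were 0.13, -0.14 and -0.21. Cells with at least 500 genes, which left only the 2 batch 1 libraries with myeloid-like cells, gave 0.73 for Axl and 1.26 for Calr. The exact sign-flip permutation gave 0.33 and 0.37. Calr was 0.40 without TMM and -0.085 in batch 2 alone. Cd47 was 0.47 to 0.62 with a library left out, and its call was lost without WT 1 or without KO 1. The cause of these shifts was not tested.

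Replicate numbers 1 and 4 occur in both groups, and same-numbered libraries did not deviate together (correlations of -0.0453 to -0.298 over genes). The reported fits therefore use the number only as a name. Whether same-numbered libraries shared a cage or run was not tested. With the replicate block 0 genes were called in each class, Sirpa in myeloid-like cells was 0.14 and Calr -0.082, and over the same libraries without the block they were 0.19 and -0.038.

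In the order of classes, 0 of the neighbouring steps passed under any of the settings tried, and 7 steps changed sign. At 50 CPM as pseudocount these were Cd47 in endothelial-like over tumor-like cells (0.11) and Axl in dendritic-like over endothelial-like cells (-0.020). At 1 CPM they were Sirpa (-0.49) and Gas6 (-0.063) in T-like over tumor-like cells and Axl in pericyte-like over epithelial-like cells (-0.050). With free RNA subtracted they were Axl in fibroblast-like over myeloid-like (-0.0002208) and T-like over dendritic-like cells (-0.30).

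Depth limits the myeloid-like and T-like values, since batch 2 sums hold few UMIs of Axl, Gas6 and Sirpa. With at least 500 genes per cell too few libraries were left to compare KO with WT in myeloid-like or T-like cells, and at clustering resolution 0.5 in T-like cells, so these gave no value.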
